A study of Arabidopsis thaliana with 12 samples.

Results

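In leaves of the Arabidopsis ssi2 mutant, 60 genes had low signals that stayed low in ssi2 sid2 leaves and lay near or above wild type in ssi2 act1 leaves. These 60 were selected on their measured values, out of 13350 genes that a single-gene probe set of the array measured. The values that chose them were the genotype means of log2(signal + 16). Relative to wild type, the mean had to be lower by at least 1.5 in ssi2 and in ssi2 sid2 and lower by no more than 0.75 in ssi2 act1, with a wild-type mean of at least 8. Every difference from wild type below, and every difference between ssi2 act1 and the other 2 mutant lines, therefore describes the selection and carries no test.

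The groups were ssi2, ssi2 act1, ssi2 sid2 and wild type, with 3 Affymetrix arrays of total leaf RNA each and 12 in all. The labels give Col-0 as the genetic background of all 4 genotypes, leaves were taken at 4 weeks, and plants were kept at 22 °C and 65% humidity with a 14 h photoperiod. All 3 mutant lines carry ssi2, so no act1 or sid2 plant with an intact SSI2 gene was compared. The labels call the arrays biological replicates without saying whether plants were grown apart or at what time of day leaves were cut, so the p-values cover only the spread among these arrays, which may be technical. Because whole leaves were extracted, fewer cells of a type and less RNA per cell cannot be told apart.

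SSI2 is the plastid stearoyl-ACP desaturase, which makes oleic acid. ACT1 is the plastid glycerol-3-phosphate acyltransferase, which uses oleic acid to build glycerolipids, and loss of ACT1 in ssi2 is known to bring oleic acid back. SID2 is the isochorismate synthase of salicylic acid synthesis, and loss of SID2 lowers the salicylic acid that ssi2 accumulates while leaving oleic acid low. The annotation used here names no probe set for SSI2, ACT1 or SID2, so the mutated genes were not analysed here.

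The 4 thresholds were met by 115 probe sets, of which 61 named 1 gene, 3 named several genes and 51 named none. Here a gene is called measured only where the annotation names a probe set for it, and other genes may be on unnamed probe sets. COR47, a cold-regulated dehydrin gene, was the 1 gene left out by name. Besides the wild-type minimum of the selection, no filter on low signal was applied, and all 60 members were fitted. The RefSeq annotation counts 59 of them as protein coding and 1, AT1G35612, as a pseudogene. Only 5 members have a symbol besides the locus number: ZW9, Fes1B (a nucleotide exchange factor of Hsp70 chaperones), ATL8 (a RING-type ubiquitin ligase of the ATL family), BZIP61 (a bZIP transcription factor) and HIS1-3 (the drought-induced linker histone H1). The other 55 are given by locus, with no role.

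The arrays had been scaled to the same trimmed mean of about 500, with medians of 95.8 to 158 signal units. RCA, the Rubisco activase of photosynthetic cells, had 8251 to 21357 units on 11 arrays and 2419 on wild-type replicate 2. CLV3, a shoot meristem gene, was at 17.9 units or less on every array. An array of wild type (replicate 2) and an array of ssi2 (replicate 3) differed most from the others of their genotype. Some of the counts and differences below are also given without them.

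Across the 60 genes, the difference from wild type had a median of -1.98 in ssi2, -0.16 in ssi2 act1 and -2.02 in ssi2 sid2. Over the 8585 probe sets with a wild-type mean of at least 8, the same medians were -0.09, 0.00 and -0.09. The lowest values were -5.04 in ssi2 and -6.42 in ssi2 sid2, and ssi2 act1 spanned -0.68 to 1.60. In ssi2, 29 genes were lower by at least 2, 10 by at least 3 and 5 by at least 4, while in ssi2 sid2 these numbers were 32, 5 and 1.

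**Figure D1:**
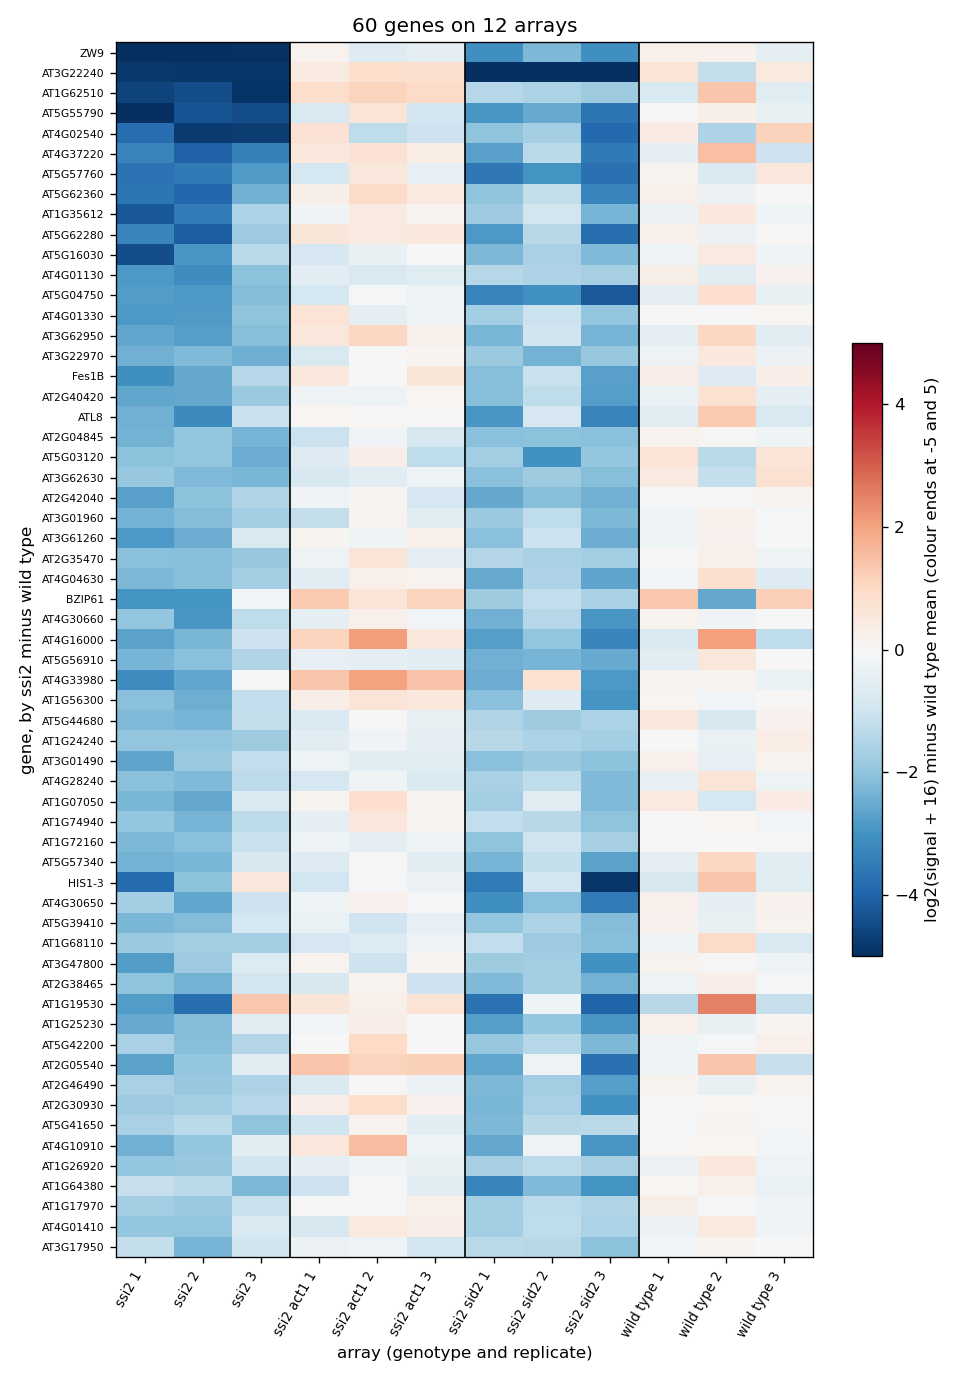
Levels of the 60 genes (rows) on the 12 arrays (columns), coloured by difference from the wild-type mean on the log2(signal + 16) scale. The columns of ssi2 and ssi2 sid2 are low and those of ssi2 act1 lie near wild type, with median differences of -1.98, -2.02 and -0.16.

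ZW9 had the lowest level in ssi2 relative to wild type. Its signals were 30.05, 30.76 and 35.5 in ssi2, 1749, 984 and 1119 in ssi2 act1, 172, 315 and 174 in ssi2 sid2, and 1860, 1817 and 1124 in wild type. The ssi2 act1 arrays overlapped wild type, and all ssi2 sid2 arrays lay between the ssi2 arrays and the other 2 genotypes. On the log2 scale the means were 5.59 ± 0.09 in ssi2, 10.30 ± 0.43 in ssi2 act1, 7.83 ± 0.47 in ssi2 sid2 and 10.62 ± 0.41 in wild type (SD, n = 3 each).

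AT3G22240 had the highest wild-type mean of the 60. Its signals were 460, 444 and 445 in ssi2, 18436, 24512 and 23422 in ssi2 act1, 109, 248 and 100 in ssi2 sid2, and 21751, 5932 and 18776 in wild type. Here ssi2 sid2 lay below ssi2 on every array, and wild-type replicate 2 was the lowest wild-type array. The difference from wild type was -4.85 in ssi2, 0.71 in ssi2 act1 and -6.42 in ssi2 sid2. Without wild-type replicate 2 it was -5.44 in ssi2, 0.12 in ssi2 act1 and -7.01 in ssi2 sid2.

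AT1G62510 had signals of 98.4, 114 and 78.0 in ssi2, 5091, 5976 and 5404 in ssi2 act1, 1031, 931 and 799 in ssi2 sid2, and 1641, 7291 and 1809 in wild type. The ssi2 sid2 arrays stood about midway between ssi2 and ssi2 act1 on the log2 scale, with means of 9.86 in ssi2 sid2, 6.81 in ssi2 and 12.42 in ssi2 act1. Wild-type replicate 2 lay above all ssi2 act1 arrays and the other wild-type arrays below them. Without wild-type replicate 2 the difference from wild type was -3.96 in ssi2, 1.66 in ssi2 act1 and -0.90 in ssi2 sid2, so AT1G62510 then missed the ssi2 sid2 threshold. AT5G55790 was near the floor of the scale in ssi2, at 5.04, 17.8 and 15.5 units, against 385, 1040 and 335 in ssi2 act1, 74.2, 103 and 39.0 in ssi2 sid2, and 694, 806 and 514 in wild type. With 16 added to each signal, differences at such low signals are understated.

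**Figure D2:**
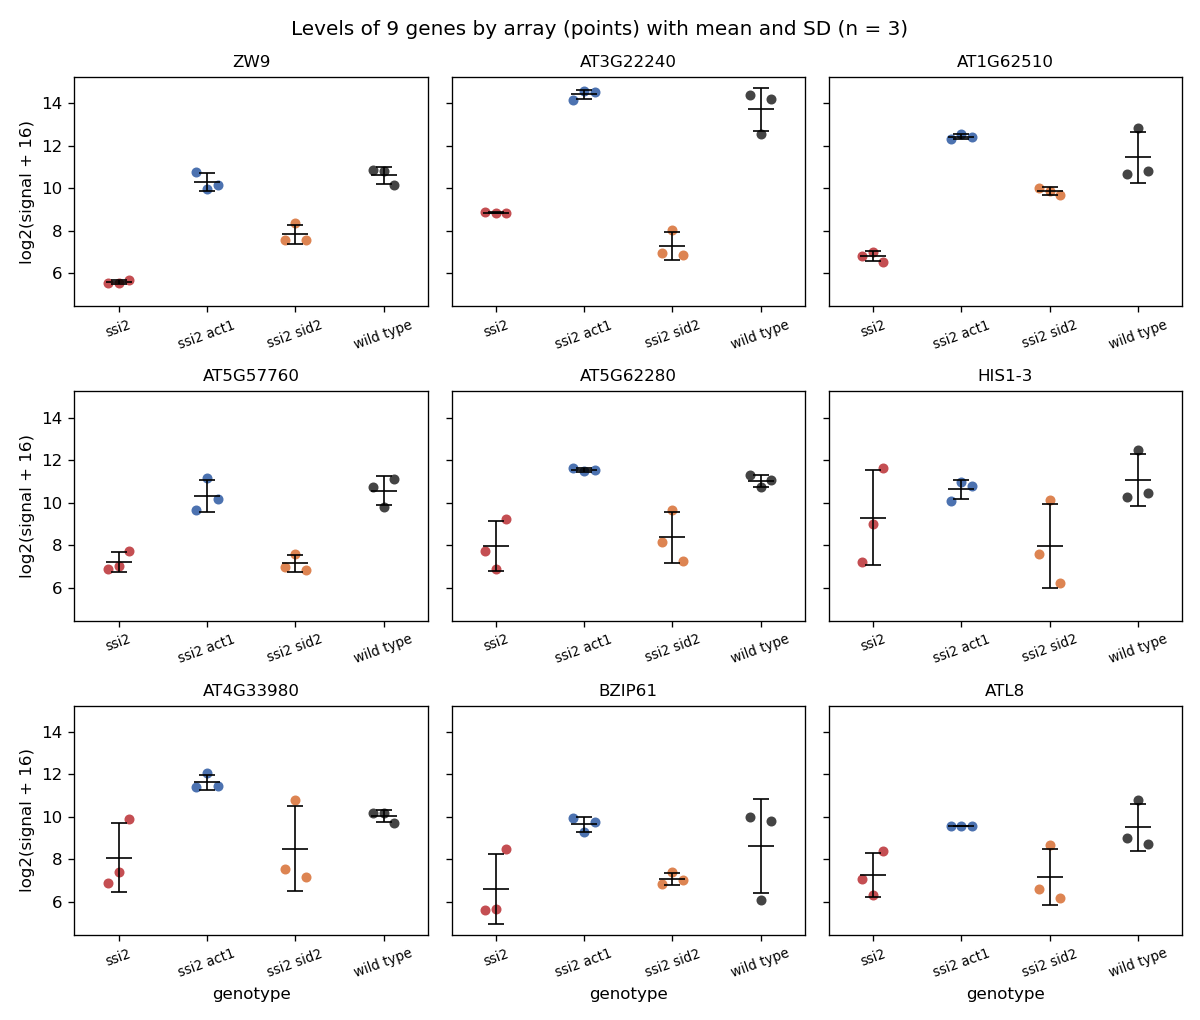
Levels of 9 genes as log2(signal + 16) by genotype, with a point for each array and the mean and SD of each genotype (n = 3). ZW9 and AT1G62510 are higher in ssi2 sid2 than in ssi2, whereas AT3G22240 is lower on all 3 ssi2 sid2 arrays.

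The remaining genes of the 20 lowest in ssi2 lay at -4.45 to -2.19 in ssi2. AT4G02540 (-4.45), AT4G37220 (-3.57), AT5G57760 (-3.35), AT5G62360 (-3.31), AT1G35612 (-3.11) and AT5G62280 (-3.08) were at or past -3 in ssi2. In ssi2 sid2 the same 6 genes were at -2.53, -2.54, -3.42, -2.17, -1.69 and -2.66. Fes1B had 126, 186 and 418 units in ssi2, 1684, 1185 and 1764 in ssi2 act1, 254, 534 and 166 in ssi2 sid2, and 1466, 730 and 1462 in wild type. ATL8 had 119, 62.8 and 316 units in ssi2, 747, 742 and 736 in ssi2 act1, 81.1, 386 and 56.9 in ssi2 sid2, and 489, 1748 and 404 in wild type. For both genes the arrays of ssi2 and of ssi2 sid2 lay below all wild-type arrays.

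AT5G57760 was about equally low in both lines. It had 101, 113 and 195 units in ssi2, 793, 2236 and 1116 in ssi2 act1, 111, 176 and 98.2 in ssi2 sid2, and 1670, 883 and 2220 in wild type. AT5G62360 had 349, 275 and 832 units in ssi2, 5440, 8626 and 6188 in ssi2 act1, 1073, 1933 and 434 in ssi2 sid2, and 5260, 3641 and 4489 in wild type. AT5G62280, on the same stretch of chromosome 5, had 196, 102 and 575 units in ssi2, 3170, 2803 and 2951 in ssi2 act1, 271, 788 and 137 in ssi2 sid2, and 2462, 1664 and 2149 in wild type. In AT5G62360 and AT5G62280 all ssi2 act1 arrays lay above all wild-type arrays, and the highest ssi2 and ssi2 sid2 arrays were replicates 3 and 2. The pseudogene AT1G35612 had 39.7, 77.5 and 339 units in ssi2, 928, 1382 and 1165 in ssi2 act1, 287, 545 and 194 in ssi2 sid2, and 846, 1513 and 896 in wild type. AT5G16030 had 249, 755 and 2242 units in ssi2, 3250, 4493 and 5842 in ssi2 act1, 1214, 1880 and 1224 in ssi2 sid2, and 4951, 7761 and 4963 in wild type. In both of these the ssi2 arrays spread widely, with SDs of 1.38 and 1.55 on the log2 scale.

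AT4G01130 was tight in ssi2 act1 and in ssi2 sid2. It had 165, 139 and 305 units in ssi2, 873, 762 and 854 in ssi2 act1, 470.2, 431 and 399.8 in ssi2 sid2, and 1604, 903 and 1518 in wild type. AT5G04750 had 502, 487 and 799 units in ssi2, 1983, 3446 and 2997 in ssi2 act1, 349, 424 and 181 in ssi2 sid2, and 2656, 6404 and 2784 in wild type. Its ssi2 sid2 arrays all lay below its ssi2 arrays, the reverse of AT4G01130. AT4G01330 had 178, 183 and 334 units in ssi2, 2230, 1002 and 1203 in ssi2 act1, 405, 653 and 350.4 in ssi2 sid2, and 1380, 1327 and 1470 in wild type. AT3G62950 had 264, 237 and 374 units in ssi2, 2503, 3538 and 2033 in ssi2 act1, 332, 846 and 325 in ssi2 sid2, and 1211, 3549 and 1144 in wild type. The ssi2 sid2 arrays of AT4G01330 all lay above its ssi2 arrays, and those of AT3G62950 overlapped them. AT3G22970 had 311, 361 and 297 units in ssi2, 1010, 1663 and 1895 in ssi2 act1, 463, 320.5 and 449 in ssi2 sid2, and 1447, 2466 and 1388 in wild type. AT2G40420 had 388, 406 and 676 units in ssi2, 2152, 2058 and 2658 in ssi2 act1, 553, 1019 and 354 in ssi2 sid2, and 1974, 4206 and 1793 in wild type. AT2G04845, the gene with the lowest ssi2 act1 value relative to wild type (-0.68), had 82.9, 118 and 85.7 units in ssi2, 226, 429 and 271 in ssi2 act1, 101, 106 and 104 in ssi2 sid2, and 547, 506 and 419.6 in wild type. In all 3 genes the ssi2 and ssi2 sid2 arrays lay below the ssi2 act1 arrays.

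The 40 members not among the 20 lowest in ssi2 lay between -2.17 (AT5G03120) and -1.503 (AT3G17950) in ssi2. Over all 60 genes the median SD of the 3 arrays was 0.58 in ssi2, 0.38 in ssi2 act1, 0.52 in ssi2 sid2 and 0.41 in wild type. Over all probe sets with a wild-type mean of at least 8 it was 0.38, 0.41, 0.27 and 0.40.

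Among the most abundant members, AT4G30650 and AT4G30660 are adjacent genes on chromosome 4. AT4G30650 had 2669, 1421 and 4282 units in ssi2, 7241, 10209 and 8196 in ssi2 act1, 1030, 2050 and 755 in ssi2 sid2, and 10365, 6251 and 10274 in wild type. AT4G30660 had 1823, 941 and 2939 units in ssi2, 5209, 8422 and 6506 in ssi2 act1, 1319, 2604 and 921 in ssi2 sid2, and 7991, 6294 and 7065 in wild type. Both genes were highest on replicate 3 among the ssi2 arrays and on replicate 2 among the ssi2 sid2 arrays. AT4G28240 had 1876, 1690 and 3201 units in ssi2, 4412, 6982 and 4827 in ssi2 act1, 2568, 3321 and 1719 in ssi2 sid2, and 6021, 12432 and 6760 in wild type. AT3G61260 had 928, 1226 and 4040 units in ssi2, 7712, 5972 and 8278 in ssi2 act1, 1600, 3285 and 1247 in ssi2 sid2, and 6062, 8130 and 6815 in wild type. With wild-type means of 12.96 and 12.77, they completed the 5 genes with the highest wild-type level.

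The level in ssi2 act1 was not the wild-type level in every gene. Its mean was above wild type in 25 genes and below in 35, and the arrays overlapped wild type in 52. All ssi2 act1 arrays were above all wild-type arrays in 5 genes (AT5G62360, AT5G62280, AT4G33980, AT1G56300 and AT2G30930; 8.43% of all probe sets) and below in 3 (AT4G01130, AT1G72160 and AT3G17950; 8.09% of all). The mean was at least 0.75 above wild type in AT4G33980 (1.60), AT2G05540 (1.24), AT4G16000 (1.24), BZIP61 (1.03) and AT1G62510 (0.97). Without wild-type replicate 2, 7 genes were at least 0.75 above wild type, namely AT4G16000 (2.27), AT2G05540 (1.93), AT1G19530 (1.77), AT4G33980 (1.69), AT1G62510 (1.66), AT4G37220 (1.30) and AT3G62950 (1.14). In that setting none of these 7 genes met all the thresholds. The ssi2 threshold was missed by AT4G16000 (-0.97), AT2G05540 (-1.03) and AT1G19530 (-0.49). The ssi2 sid2 threshold was missed by AT4G33980 (-1.44), AT1G62510 (-0.90) and AT3G62950 (-1.35), and AT4G37220 had a wild-type mean of 7.80. On the lower side, 6 genes missed the ssi2 act1 threshold without wild-type replicate 2. They were AT4G02540 (-1.30), AT5G03120 (-1.19), AT3G62630 (-1.15), AT4G01130 (-0.90), AT5G39410 (-0.78) and AT5G44680 (-0.77). Without the same array BZIP61 turned to -0.24 in ssi2 act1, and the ssi2 act1 mean was above wild type in 28 genes and below in 32. AT4G33980 had 2679, 4178 and 2752 units in ssi2 act1, against 1140, 1153 and 815 in wild type. AT2G05540 had 834, 1421 and 3716 units in ssi2, 14420, 11834 and 12514 in ssi2 act1, 882, 4589 and 391 in ssi2 sid2, and 4681, 14116 and 2433 in wild type. AT4G16000 had 109, 146 and 377 units in ssi2, 1712, 3335 and 1130 in ssi2 act1, 101, 189 and 65.8 in ssi2 sid2, and 448, 3323 and 311 in wild type. In both, wild-type replicate 2 was far above the other wild-type arrays. BZIP61 had 972, 601 and 836 units in ssi2 act1, against 989, 51.5 and 883 in wild type, and wild-type replicate 2 was the 1 wild-type array below all ssi2 act1 arrays.

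**Figure D3:**
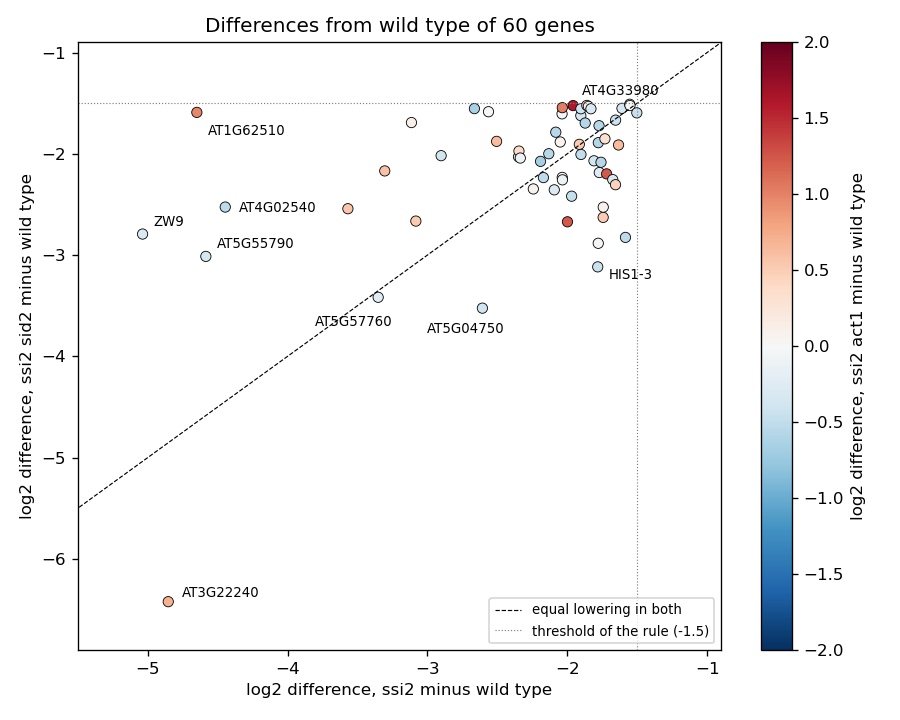
Difference from wild type of the 60 genes in ssi2 (horizontal) and ssi2 sid2 (vertical) on the log2(signal + 16) scale, with 1 point per gene coloured by the difference of ssi2 act1 from wild type. All points lie at or under -1.5 on both axes, as the selection requires, and the colours reach 1.60.

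Genotype means can be moved by 1 array, so the separation of single arrays was counted, again as a description. All ssi2 arrays lay below all wild-type arrays in 53 of the 60 genes, against 10.9% of all 22746 probe sets. All ssi2 sid2 arrays lay below all wild-type arrays in 55 (12.5% of all). All ssi2 act1 arrays lay above all ssi2 arrays in 54 (10.9% of all) and above all ssi2 sid2 arrays in 59 (13.3% of all). All 4 separations held in 49 genes (2.29% of all). Since the selection used these contrasts, nothing is read from those counts.

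HIS1-3, named after its values were seen, was a gene whose arrays overlapped. It had 132, 496 and 3195 units in ssi2, 1077, 1992 and 1754 in ssi2 act1, 173, 1081 and 57.3 in ssi2 sid2, and 1218, 5658 and 1396 in wild type. The ssi2 replicate 3 array exceeded all 3 ssi2 act1 arrays, so the low ssi2 mean rests on the other 2 arrays. Without wild-type replicate 2 the difference of ssi2 from wild type was -1.08, so HIS1-3 then missed the ssi2 threshold.

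The difference between ssi2 sid2 and ssi2 was not used by the selection, beyond both lying at least 1.5 under wild type, and was tested with limma over all 22746 probe sets. Of the 60 genes, 2 were called higher in ssi2 sid2 (1.42% of all probe sets were) and 0 lower (1.71% of all), at a Benjamini-Hochberg adjusted p under 0.05. At an unadjusted p under 0.05 limma gave 12 genes, 8 higher and 4 lower, and 16.2% of all probe sets passed that threshold. AT1G62510 rose by 3.06 (SE 0.45, limma adjusted p = 0.00477) and ZW9 by 2.24 (SE 0.31, limma adjusted p = 0.00308). Both stayed past the threshold in all 22 alternative settings, with adjusted p-values of 3.43e-05 to 0.0491 for AT1G62510 and 0.0012 to 0.0256 for ZW9.

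The gene with the largest negative difference was AT3G22240, at -1.57 (SE 0.45, limma adjusted p = 0.0918), which missed the threshold and passed it in 2 of 22 alternatives (0.0142 to 0.326). Next to the called genes on the higher side were AT4G02540 at 1.92 (adjusted p = 0.227), AT5G55790 at 1.57 (adjusted p = 0.074) and AT1G35612 at 1.42 (adjusted p = 0.245). The median difference of the 60 was 0.05, against -0.07 over all probe sets, and 48 genes lay within 1 of 0 with a median SE of 0.416. All ssi2 sid2 arrays were above all ssi2 arrays in 7 genes (10.4% of all probe sets) and below in 3 (13.5% of all). With wild-type replicate 2 and ssi2 replicate 3 both left out, limma called 5 of the genes higher (1.62% of all probe sets in that setting) and 2 lower (2.44% of all), the lower ones being AT3G22240 at -1.58 (adjusted p = 0.0341) and AT1G64380 at -1.58 (adjusted p = 0.0453).

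**Figure D4:**
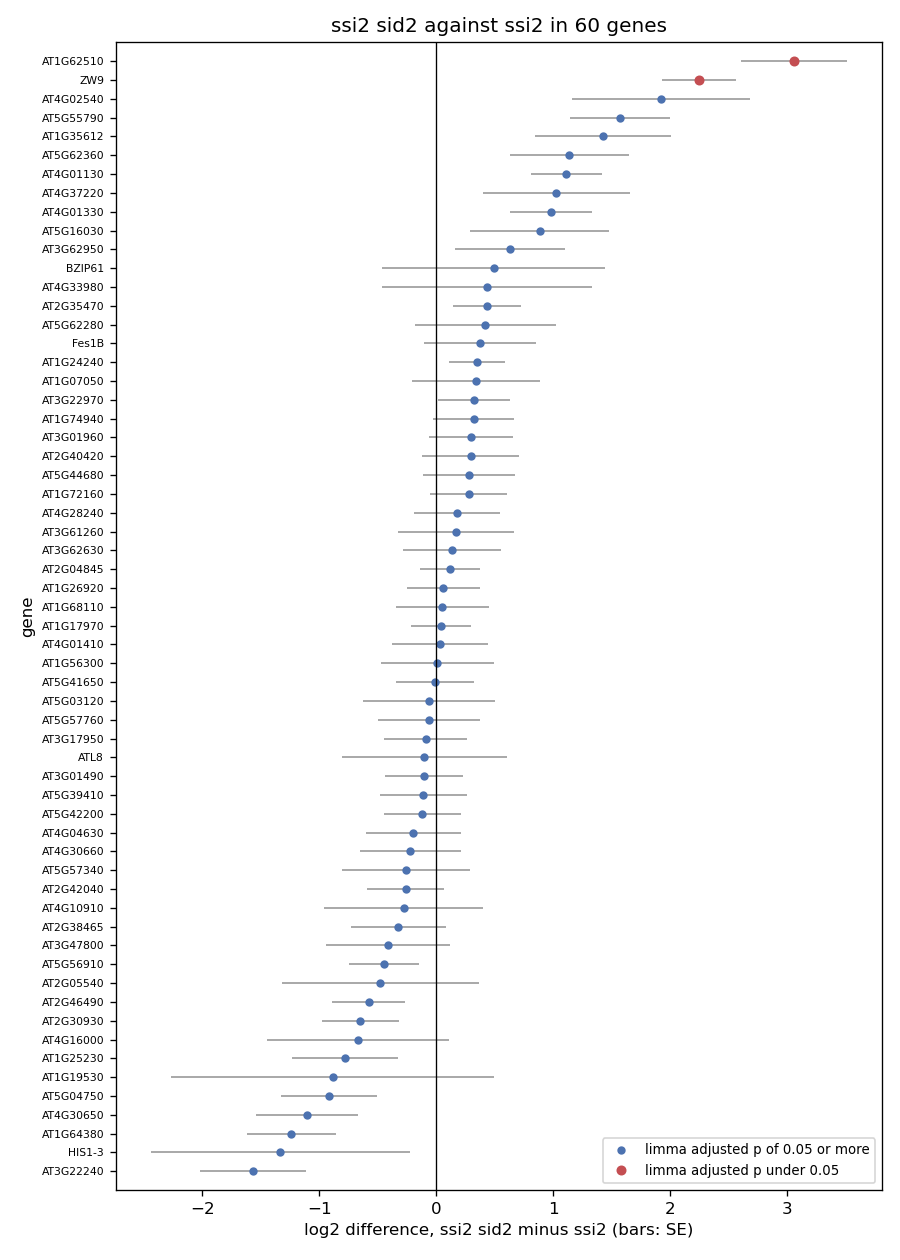
Difference of ssi2 sid2 minus ssi2 for the 60 genes, with limma standard errors, on the log2(signal + 16) scale. AT1G62510 (3.06) and ZW9 (2.24) are the 2 genes past the adjusted threshold, and the median of all 60 is 0.05.

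Deviations of single arrays from their genotype mean are given as a description, since the selection used the means of the same arrays. Of the 60 genes, 24 no longer met the thresholds without wild-type replicate 2 and 15 without ssi2 sid2 replicate 3. Without ssi2 replicate 1, 10 no longer met them, and without wild-type replicate 1, 9. The number was 8 without ssi2 replicate 2, ssi2 act1 replicate 2, ssi2 sid2 replicate 1 or wild-type replicate 3. Without any other single array it was at most 2. The members' mean deviation from their genotype mean was 0.65 on ssi2 replicate 3, where 51 of 60 genes were above their mean, and 0.61 on ssi2 sid2 replicate 2, where 53 were. Over 4527 single-gene probe sets with a wild-type mean of at least 8, the mean deviations on these arrays were 0.06 and 0.04. Of those probe sets, 55.5% and 51.8% were above their means. For the members the opposite side held ssi2 sid2 replicate 3 (-0.49), ssi2 replicate 1 (-0.34) and ssi2 replicate 2 (-0.31), and every other array was within 0.21 of 0. On ssi2 replicate 3 and ssi2 sid2 replicate 2 together, 46 of 60 genes were above their means, against 41.0% of 4527 single-gene probe sets with a wild-type mean of at least 8.

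The deviations of ssi2 replicate 3 and ssi2 sid2 replicate 2 correlated across genes at 0.65 in the 60 genes and 0.61 in all 4527. Genes are not independent replicates and share the arrays, and nothing is read from these values about the 60 genes.

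GI, a clock gene that peaks late in the day and the 1 measured gene of the clock list, was high on the same arrays. It had 168, 150 and 1216 units in ssi2, 1814, 691 and 571 in ssi2 act1, 81.4, 486 and 108 in ssi2 sid2, and 1413, 489 and 1065 in wild type. Its difference between ssi2 and wild type was -1.46 (limma adjusted p = 0.317, past the threshold in 2 of 22 alternatives, down to 0.0187). In ssi2 act1 against ssi2 GI had 1.45 (limma adjusted p = 0.347, past the threshold in 2 of 22 alternatives, down to 0.0202). Whether the time of harvest had a part in these values was not tested.

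**Figure D5:**
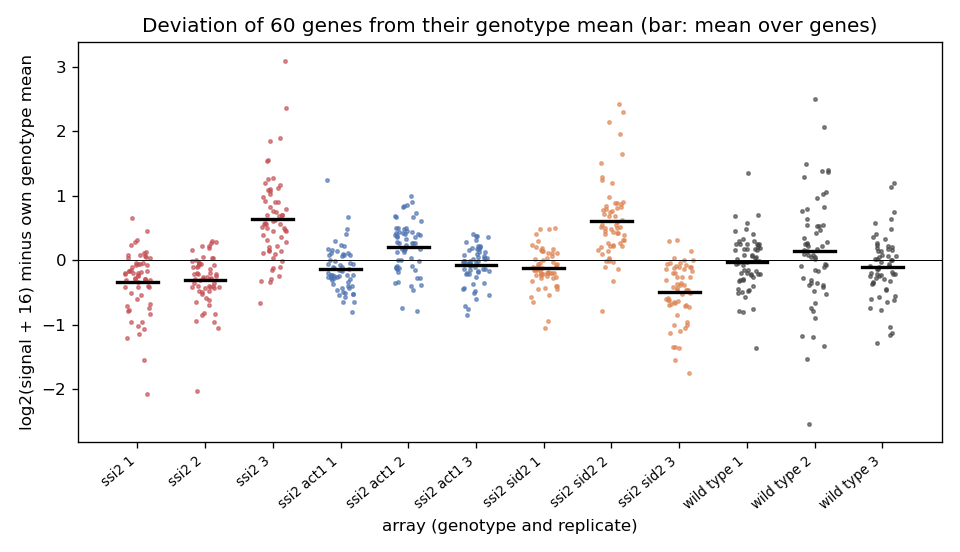
Deviation of the 60 genes from their genotype mean on each of the 12 arrays, on the log2 scale. The genes sit highest on ssi2 replicate 3 (mean 0.65) and ssi2 sid2 replicate 2 (mean 0.61) and lowest on ssi2 sid2 replicate 3 (mean -0.49).

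Other genes of the families under which AT3G22240 and ZW9 were listed, CYSTM and MATH, were counted beside them. Both lists were written by locus from general knowledge, and the annotation used here does not name these families. Of 6 other measured genes on a list of the CYSTM family of small cysteine-rich membrane proteins, 2 rose and 0 fell in ssi2 against wild type (5.77% and 4.34% of all probe sets). AT1G56060 rose by 4.66 (limma adjusted p = 0.000826) and AT2G32190 by 4.36 (limma adjusted p = 0.00109). AT1G05340 had 2896, 1900 and 1665 units in ssi2, against 214, 7015 and 206 in wild type. Its difference was 1.57 (limma adjusted p = 0.48, past the threshold in 2 of 22 alternatives). AT4G33660, AT5G04080 and AT2G33520 had -0.45, -1.10 and -0.09, past it in 0 alternatives. In ssi2 act1 against ssi2 AT1G56060 fell by 3.88 (adjusted p = 0.00332) and AT2G32190 fell by 2.88 (adjusted p = 0.0145, past the threshold in 19 of 22 alternatives), where 3.17% of all probe sets rose and 5.2% fell. Of 15 other measured genes on a list of the MATH (TRAF-like) domain family, 2 rose in ssi2 and 0 fell, AT3G20370 by 2.12 (adjusted p = 0.0107) and AT3G17380 by 0.97 (adjusted p = 0.035, past the threshold in 9 of 22 alternatives). In ssi2 act1 against ssi2 AT3G17380 fell by 0.95 (adjusted p = 0.0445, past the threshold in 7 of 22 alternatives, up to 0.181).

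Both measured genes of the salicylic acid response list rose in ssi2. WRKY53, a transcription factor of leaf defence and ageing, rose by 3.38 in ssi2 against wild type (limma adjusted p = 0.000123) and the salicylic acid-inducible glutaredoxin gene GRX480 by 2.76 (adjusted p = 0.0014). In ssi2 act1 against ssi2 WRKY53 fell by 3.38 (adjusted p = 0.000202) and GRX480 fell by 2.41 (adjusted p = 0.004). In ssi2 sid2 against ssi2 GRX480 fell by 2.03 (adjusted p = 0.0214, past the threshold in 15 of 22 alternatives) and WRKY53 had -1.27 (adjusted p = 0.0714). THI2.1, a thionin gene of the jasmonate list, rose by 5.65 in ssi2 against wild type, fell by 5.54 in ssi2 act1 against ssi2 and fell by 5.18 in ssi2 sid2 against ssi2 (adjusted p = 8.99e-05, 0.000183 and 0.000487). Of the 2 measured light-harvesting genes, LHCB4.2 fell by 1.91 in ssi2 (adjusted p = 0.00189) and LHCB4.1 had -0.53 (adjusted p = 0.299).

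Of 4 measured guard cell and trichome markers, 0 passed the threshold in any of the 3 comparisons. The 1 measured mesophyll marker, RCA, did not pass either (1.17 in ssi2 against wild type, adjusted p = 0.212). The trichome marker TRY had 300, 249 and 16.4 units in ssi2 and 708, 395 and 753 in ssi2 sid2. In wild type TRY had 31.5, 32.4 and 14.7 units, and ssi2 sid2 was not tested against wild type. Against wild type TRY had 1.76 in ssi2 (limma adjusted p = 0.136, past the threshold in 3 of 22 alternatives). FMA, SPCH and MUTE passed it in 0 alternatives. PYK10, a beta-glucosidase of roots, had 308, 214 and 37.2 units in ssi2, against 21.45, 27.2 and 38.01 in wild type, and rose by 1.84 against wild type (adjusted p = 0.0448, past the threshold in 5 of 21 alternatives). The part of changed cell types in the low levels was not tested.

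The 60 genes lay on all 5 chromosomes, with 15, 9, 11, 12 and 13 on chromosomes 1 to 5. Chromosome 4 held 12 of the 60, against 14.6% of all single-gene probe sets, and chromosome 1 held 15, against 25.7%. Besides the adjacent AT4G30650 and AT4G30660, 2 pairs lay 5 measured genes apart, AT4G01330 with AT4G01410 and AT5G62280 with AT5G62360. Counted over all annotated genes, these pairs lay 11 and 9 genes apart. Among 578 other genes up to 5 measured genes from a member, 27 fell (4.67%, against 4.34% of all probe sets) and 14 rose (2.42%, against 5.77% of all) in ssi2 against wild type. In ssi2 act1 against ssi2, 21 rose (3.63%, against 3.17% of all) and 22 fell (3.81%, against 5.2% of all). The 578 genes all have a named probe set, whereas all probe sets include unnamed ones, so these shares are not directly comparable. ZW9 had 2 neighbours that fell in ssi2, AT1G58150, which fell by 4.15, and AT1G58170, which fell by 1.11, and 1 that rose. AT1G62510 had AT1G62480, which fell by 3.27, and 1 that rose.

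Near the thresholds, AT3G17950 (-1.503) and AT4G01410 (-1.55) were just inside in ssi2 and AT5G45310 (-1.47) and AT5G64180 (-1.46) just outside. In ssi2 sid2, AT1G17970 (-1.51) and AT1G07050 (-1.52) were just inside and BPC1 (-1.49) and AT2G20670 (-1.46) just outside. In ssi2 act1, AT2G04845 (-0.68) and AT4G01130 (-0.64) were inside and AT5G51620 and AT1G12010 (both -0.76) outside. In wild type, AT1G19530 (8.07) and AT5G41650 (8.10) were inside and AT2G40530 (7.84) and AT3G10120 (7.82) outside.

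Which genes met the thresholds depended on single arrays. With each array left out in turn, 45 to 75 genes met them, and 19 of the 60, among them ZW9, AT3G22240, ATL8 and Fes1B, met them in all 12 settings. Without wild-type replicate 2, 36 of the 60 still did, and AT1G62510 was not among them. Without wild-type replicate 2 and ssi2 replicate 3, 39 of the 60 did.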

How the data were processed

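Intensity values of 12 Affymetrix arrays were deposited by the authors, made with Affymetrix Expression Console 1.0 per the submitters' processing notes; the summary method is not given in the sources used here, and on each array the values have a trimmed mean (2%) of about 500. Of 22810 probe sets, 64 controls were left out. Probe sets were named from the platform annotation and RefSeq TAIR10.1 symbols: 13513 had 1 gene (13436 matched RefSeq), 503 several and 8794 none.

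Signals were used as log2(signal + 16) without further scaling. Genotype means gave the members; the members and the gene lists were chosen with earlier results of these data known. Differences were tested with limma 3.58.1 (R 4.3.3; lmFit, eBayes, all 12 arrays, two-sided, Benjamini-Hochberg over 22746 probe sets). The fitting code was first checked on simulated data with known differences. Named members are the 20 lowest in ssi2, the 5 with the highest wild-type mean, the 5 highest in ssi2 act1 and those at the thresholds; others were chosen after their values were seen. Up to 4 called genes per list or neighbourhood were named. A planned comparison with genes of the same product text was not run. Array number limits precision. Deviations of same-numbered arrays of 2 genotypes correlated at over 0.1 in 6 of 18 pairs, and over the 18 pairs the values ran from -0.38 to 0.33. This check cannot tell whether same-numbered arrays were handled together, and the main fit did not pair them. Alternatives changed the scaling, the pseudocount (1, 64), a filter at the 40th percentile, the arrays used, the prior and the replicate block.

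Lists of SAUR, arabinogalactan, aquaporin, lipid transfer and GASA genes had 0 genes with a probe set named in the annotation. This does not show that the array lacks them. The nitrate and phosphate transporter list had 1 gene with a named probe set, NRT2.5 (-0.73 in ssi2 against wild type, limma adjusted p = 0.343).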

Additional observations from a re-analysis of the deposited data

How the results depend on the processing

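The 19 called differences followed across settings, from 11 genes, gave 416 values, of which 360 kept their side of the threshold, 56 lost the call and 0 reversed. Among the 60 genes, those called higher in ssi2 sid2 than in ssi2 numbered 5, and those lower 2, with wild-type replicate 2 and ssi2 replicate 3 left out, and 1 was lower without ssi2 replicate 3 and ssi2 sid2 replicate 2, a setting chosen after seeing the data. With single arrays left out they numbered 2 to 4 higher (4 without ssi2 replicate 3) and 0 to 1 lower (1 without wild-type replicate 2). The replicate block gave 3 higher and 0 lower, and it moved no count by over 1.5 times. Over all probe sets, ssi2 sid2 against ssi2 gave 175 higher and 204 lower with a pseudocount of 1, and 160 and 164 without ssi2 replicate 3 and ssi2 sid2 replicate 2. Leaving out single arrays gave 109 (without ssi2 sid2 replicate 3) to 505 (without wild-type replicate 2) higher and 124 to 621 lower on the same arrays. For ssi2 against wild type, 697 were higher and 464 lower with only the 6 arrays compared, 1719 were lower after median centring, and single arrays left out gave 714 to 1515 higher and 577 to 1327 lower. For ssi2 act1 against ssi2, 1382 were higher after median centring, 424 with a pseudocount of 1, 1181 with both arrays that stood apart left out and 441 with only the 6 arrays, and 1936 were lower with both left out. Single arrays left out gave 298 to 990 higher and 589 to 1597 lower, the extremes without ssi2 replicate 2 and without wild-type replicate 2. The rule itself gave 72 genes after quantile normalization (58 of the 60), 86 after median centring (60), 46 with a pseudocount of 64 (43), 81 with medians (43) and 90 without ssi2 replicate 3 and ssi2 sid2 replicate 2 (58). The causes were not tested.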
